A study of Mus musculus with 11 samples.

Results

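Naive-only boundary regions are stretches of open chromatin that were called in alveolar macrophages of tumour-free mice, no more than 1000 bp from a gene's start or end, and that overlapped no called peak in macrophages of tumour-bearing mice. Open chromatin was mapped by ATAC-seq, where a transposase cuts accessible DNA and attaches the adapters for sequencing. The peaks of 3 lists were merged into 16069 regions on the mm10 build of the mouse genome, peaks sharing at least 1 bp being joined, and gene ends were taken from RefSeq. Of these regions 1998 met the definition, each formed by a single naive peak. They made up 25.8% of the 7759 boundary regions with a naive peak.

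The cells were sorted lung alveolar macrophages of strain C57BL/6, a label that all groups share. The naive group, labelled wild type in the design text, had 4 samples. Tumour-bearing mice had been given KP or KP-GFP tumour cells by injection into the tail vein, and their lungs were collected after 15 days (4 samples) or 30 days (3 samples), so the tumours were transplanted and not grown from the host's own lung cells. KP cells are a mouse model of lung adenocarcinoma, and the labels do not say whether 1 line or several were used. Each group had 1 peak list that all its samples share. No value below therefore has a replicate error and no test between conditions is given. The 95% Wilson intervals cover counting error over regions or genes only.

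Most regions of open chromatin at gene boundaries are promoters, where nucleosomes are displaced and RNA polymerase assembles. Many promoters of genes that every cell uses lie in CpG islands, are rich in G and C and are open in most cell types, whereas promoters of genes used by few cell types often lack an island. Alveolar macrophages live in the airspaces, clear surfactant and inhaled particles, and owe their identity to GM-CSF, TGF-beta and the nuclear receptor PPAR-gamma.

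The promoter sequence under a member shows which kind of promoter it is. The sequences below are the part of each listed promoter that lay under the member, upstream of the outermost start and outside every annotated gene, from RefSeq for GRCm38.p6, the assembly of mm10. The first 5 are those of the strongest members by naive p-value with such a stretch. They come from Eif2ak1 (chr5:143817554-143817791, plus strand), G2e3 (chr12:51348042-51348229, plus strand), the long non-coding RNA gene Gm9530 (chr1:155083362-155083514, minus strand), Fam199x (chrX:137049373-137049593, plus strand) and Zfp84 (chr7:29768386-29768551, plus strand). Each is written 5′ to 3′ along the gene's strand, and capitals mark a match to 1 of the 15 motifs listed further on.
Eif2ak1: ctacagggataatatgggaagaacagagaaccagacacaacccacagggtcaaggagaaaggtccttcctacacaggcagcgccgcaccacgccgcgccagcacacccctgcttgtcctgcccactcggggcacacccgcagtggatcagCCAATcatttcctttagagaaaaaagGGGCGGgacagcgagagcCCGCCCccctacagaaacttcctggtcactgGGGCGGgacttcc
G2e3: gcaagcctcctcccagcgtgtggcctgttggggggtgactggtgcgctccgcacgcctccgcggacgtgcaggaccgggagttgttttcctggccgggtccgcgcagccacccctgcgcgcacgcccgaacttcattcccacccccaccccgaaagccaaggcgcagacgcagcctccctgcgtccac
Gm9530: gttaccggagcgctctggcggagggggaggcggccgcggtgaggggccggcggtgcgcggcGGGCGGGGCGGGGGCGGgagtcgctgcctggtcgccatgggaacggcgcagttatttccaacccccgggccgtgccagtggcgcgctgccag
Fam199x: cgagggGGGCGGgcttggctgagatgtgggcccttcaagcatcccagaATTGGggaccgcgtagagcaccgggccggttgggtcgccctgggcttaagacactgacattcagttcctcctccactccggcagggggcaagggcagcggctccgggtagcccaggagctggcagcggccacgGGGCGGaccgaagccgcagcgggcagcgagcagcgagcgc
Zfp84: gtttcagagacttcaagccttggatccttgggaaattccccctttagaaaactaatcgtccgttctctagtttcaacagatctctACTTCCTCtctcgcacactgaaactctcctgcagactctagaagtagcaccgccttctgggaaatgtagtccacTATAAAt

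The stretches of Eif2ak1, G2e3, Gm9530 and Fam199x held between 11 and 22 CpG dinucleotides and were 59.7% to 77.8% G and C. Capitals in Eif2ak1 and Fam199x are the GC box bound by SP factors and the CCAAT box bound by NF-Y, those in Gm9530 are GC boxes, and G2e3 matched none of the motifs. Zfp84, which encodes a zinc finger protein, had 4 CpGs in a stretch of 44.6% G and C, with a PU.1-type and a TATA match.

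Another 4 sequences belong to genes of macrophages at members and were chosen after their values were seen. They come from Ear2 (chr14:44102514-44102653, plus strand), Ear6 (chr14:51853644-51853767, plus strand), Spp1 (chr5:104434917-104435110, plus strand) and Fcgr1 (chr3:96293970-96294134, minus strand). Ear2 and Ear6 encode eosinophil-associated ribonucleases, Spp1 the secreted protein osteopontin, and Fcgr1 the high-affinity IgG receptor CD64.
Ear2: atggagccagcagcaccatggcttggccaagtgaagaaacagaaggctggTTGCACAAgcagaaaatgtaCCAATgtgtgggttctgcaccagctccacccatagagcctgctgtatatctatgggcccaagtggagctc
Ear6: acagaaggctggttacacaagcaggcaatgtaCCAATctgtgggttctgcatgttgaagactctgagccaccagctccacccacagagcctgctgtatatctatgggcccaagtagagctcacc
Spp1: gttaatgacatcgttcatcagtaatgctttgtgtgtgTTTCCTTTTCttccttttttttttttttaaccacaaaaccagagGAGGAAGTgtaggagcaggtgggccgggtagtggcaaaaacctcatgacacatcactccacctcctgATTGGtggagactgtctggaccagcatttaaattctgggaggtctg
Fcgr1: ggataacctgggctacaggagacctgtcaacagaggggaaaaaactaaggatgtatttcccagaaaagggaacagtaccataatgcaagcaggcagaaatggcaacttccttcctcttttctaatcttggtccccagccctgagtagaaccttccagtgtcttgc

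The stretches of Ear2, Ear6 and Fcgr1 held 0 CpGs and that of Spp1 held 2. Their G and C content was between 44.3% and 52.9%. Capitals are a C/EBP-type and a CCAAT match in Ear2, a CCAAT match in Ear6, and an interferon-type, a PU.1-type and a CCAAT match in Spp1, while Fcgr1 matched none. The Ear genes are a family of similar copies, so reads may have been assigned to the wrong copy, and both Ear regions are uncertain for that reason.

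The members were weak peaks. Since the rule asked for regions that the tumour lists lack, and weak peaks fall below a calling threshold more readily, their strength is a description. Peak strength is given as the summit pileup, the number of tags stacked at the highest point, which was recovered from the deposited fold and p-value. The median member had 12 tags (quartiles 10 and 15, range 6 to 32) and was 268 bp wide. Boundary regions in the naive and day 15 lists had a median of 17 tags and a width of 432 bp, and those in all lists a median of 28 tags and 626 bp. At least 20 tags were found in 110 members (5.51%), against 36.9% of regions shared with day 15 alone and 82.7% of regions in all lists. A member's median fold over its local background was 5.79, against 7.39 and 9.72.

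**Figure D1:**
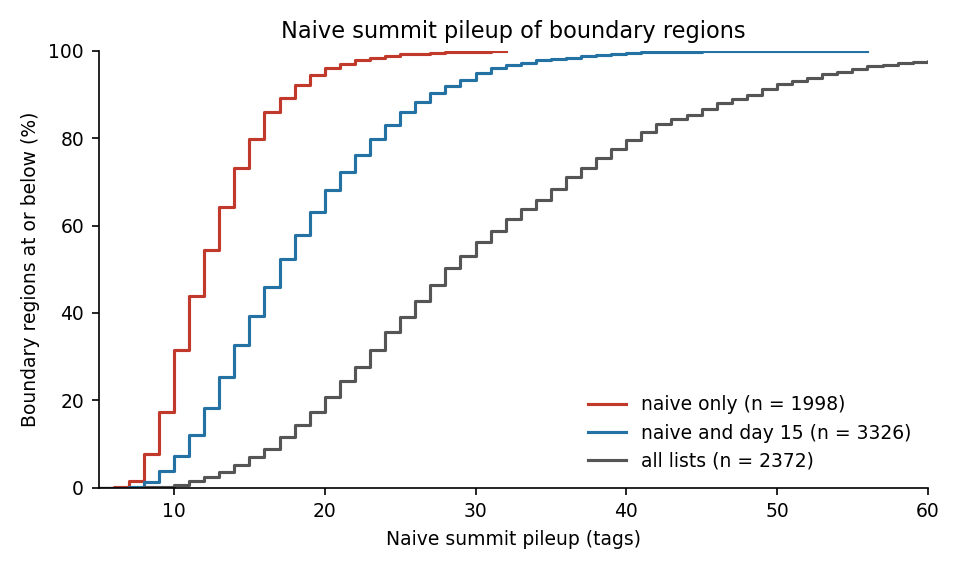
Cumulative share of boundary regions (vertical axis, %) at or below each naive summit pileup (horizontal axis, tags), for regions in the naive list only, in the naive and day 15 lists, and in all lists. The axis ends at 60 tags; the naive-only curve lies to the left, with a median of 12 tags against 17 and 28.

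The share of boundary regions that were naive-only fell with naive strength. It was 68.8% in the weakest decile by p-value (534 of 776), 24.2% in the fifth decile, 3.22% in the eighth, and 1 of 776 regions in the strongest. By pileup it was 70.8% at 6 to 9 tags, 57.7% at 10 to 12, 38.1% at 13 to 15, 19.9% at 16 to 20, 4.22% at 21 to 30 and 0.331% (4 of 1210) at 31 or more. Naive regions away from gene ends were naive-only more often, in 46.3% of 6856. The gap remained among regions of like strength. In the third decile 44.7% of boundary regions (41.3% to 48.2%) and 59.8% of the others (56.6% to 62.9%) were naive-only, and the intervals lay apart in each of the 7 weakest deciles.

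**Figure D2:**
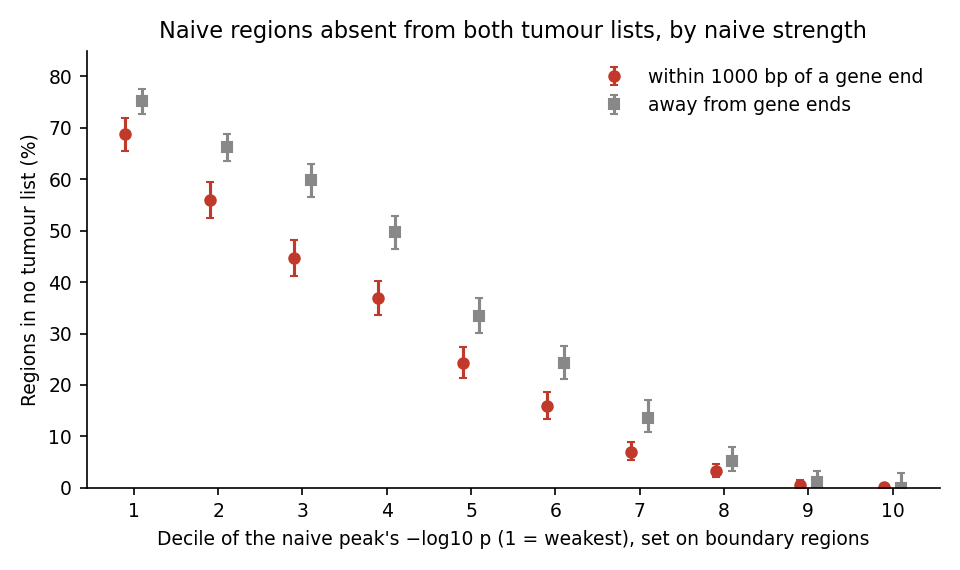
Share of regions with a naive peak that were in neither tumour list (vertical axis, %) by decile of the naive −log10 p (horizontal axis, 1 is weakest; limits set on boundary regions), for boundary regions and for regions away from gene ends. Bars are 95% Wilson intervals over regions. At boundaries the share goes from 68.8% to 0.129%, and away from them from 75.2% to 0.

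Absence from a list means that no peak passed the authors' threshold there, and the signal below it is not known. The depth, measured as background tags per 10 kb, was 39.2 in the naive, 93.5 in the day 15 and 82.2 in the day 30 list. Day 15 was thus 2.38 times as deep as naive, and a member at the median of 12 tags would have 28.6 tags at the day 15 depth if it were as open there. The lowest pileup of a called day 15 peak was 9 tags, and 95% of its peaks had 13 or more. The tumour lists were weaker as a whole, however. In the 5698 boundary regions that the naive and day 15 lists share, the day 15 pileup scaled to the naive depth was a median 0.44 times the naive one (quartiles 0.37 and 0.53) and was lower in 99.7% of regions. At day 30 the median ratio was 0.29 over 2435 regions. Where the naive pileup was 10 to 15 tags, the ratios were 0.56 and 0.51. All these ratios cover only regions called in the tumour list as well. Its threshold removes low ratios most where the naive pileup is low, so these 2 ratios cannot be compared with those over all shared regions. The members thus lie among regions that nearly all had fewer tags for their depth in the tumour lists, and what that general weakness adds to their absence there was not tested.

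The strongest member lay over the shared end of Asnsd1 and Asdurf (chr1:53352374-53352914). It had 32 tags, a fold of 13.6 and a −log10 p of 32.5 in the naive list, and the nearest day 15 and day 30 peaks were 55.0 and 55.1 kb away. Asdurf is a small protein encoded just upstream of Asnsd1 on the same transcript. Eif2ak1, the heme-regulated kinase of the translation factor eIF2, had 24 tags, a fold of 12.4 and its summit 111 bp before the start (chr5:143817554-143817872). G2e3, a ubiquitin ligase gene, had 24 tags (chr12:51348042-51348463), and it kept a different boundary peak at day 15, 28.8 kb away. These regions stood alone in the naive list, with no tumour peak within 20 kb.

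Among the 20 strongest members, 16 were at a gene start, 3 at an end of unlisted strand and 1 at the far end, that of the homeobox gene Gsc. Their pileups were between 21 and 32 tags. Gm9530 had 29 tags, Lancl1 (a glutathione-binding protein), Tmem245 and Sufu had 27 each, and Mettl22, Slc45a4, Lyst and Gsc had 25 each. Lyst regulates the size and traffic of lysosomes and is the gene mutated in beige mice; its member (chr13:13590104-13590454) had its summit 42 bp before the start. Sufu is an inhibitor of hedgehog signalling; its region (chr19:46396692-46397016), which also lies near Actr1a, had a day 15 peak 1231 bp away. Pepd, a peptidase of dipeptides that end in proline, and Gnpda2, an enzyme of glucosamine metabolism, had 24 tags each. Fam199x, Iftap and Zfp119a had 23, Zfp84 had 22, and Awat2 and Pola1 had 21. The Awat2 region also lies near Igbp1 and cannot be assigned to either gene. Pola1, the catalytic subunit of DNA polymerase alpha, Fam199x and Awat2 are on the X chromosome. Among the 20, G2e3 was the only one whose gene had another boundary peak at day 15, and none had one at day 30.

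At the lower edge of strength, Prkce (a protein kinase C, chr17:86167007-86167206) and Chtf8 had 6 tags, the histone gene H1f3 had 8, and Foxo1 and Pyroxd2 had 10 with folds of 3.40 and 3.42. At the edge of the distance rule, the regions of Zc3h18 and Gm39023 lay 999 bp from a gene end and that of Gm12977 lay 992 bp away. Just outside were Rap2b and Klhl17 at 1004 bp and Gm41308 at 1005 bp, with 20, 13 and 17 tags. The members nearest to a tumour peak were those of Pop1 (14 bp from a day 15 peak), Upf2 (24 bp from a day 30 peak) and B3galt6 (26 bp from a day 15 peak), so the rule separated these from sharing by a few bases.

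Such near neighbours were a minority. A day 15 peak lay within 500 bp of 221 members on chromosomes with tumour peaks (11.1% of 1997) and a day 30 peak within 500 bp of 70 (3.51%). The median gap was 28.9 kb (quartiles 8.40 and 76.0 kb) to a day 15 peak and 128 kb to a day 30 peak. On the other side of the rule, 29 of 5840 naive boundary peaks counted as shared overlapped a tumour peak by under 50 bp.

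At the level of genes, 1845 of the 7610 protein-coding genes with a naive boundary region (24.2%) were at 1 or more members. Of these, 1475 (79.9%, 78.1% to 81.7%) had no boundary peak in either tumour list, which is 19.4% of the 7610. Another 361 (19.6%) had a different boundary peak at day 15 and 129 (6.99%) at day 30. There were 80 genes with 2 members and 3 genes with 3, which were Sos2, Spry1 and Ifngr2.

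Several members at 1 gene were often neighbouring pieces of the same promoter. Spry1, an inhibitor of receptor tyrosine kinase signalling, had members of 13, 12 and 12 tags between 74 bp before and 961 bp after its start. Ifngr2, which encodes a chain of the interferon gamma receptor, had 17, 13 and 14 tags between 448 bp before and 322 bp after. Sos2, an exchange factor for Ras, had 14 tags on either side of its start and 11 tags near its other end. That last region lay outside Sos2, 564 bp from its end, and is also near Vcpkmt. The divergent genes Pcsk7 and Rnf214 shared a pair of members of 15 and 20 tags. Cep85l had 17 and 18 tags, the RNA-binding protein gene Rbm45 had 21 and 14, and Hacd4, of fatty acid elongation, had 15 at its start and 17 near its other end. Of the 10 genes with several members and the highest summed −log10 p, Gm38525, with 16 and 18 naive tags, alone had another boundary peak in a tumour list, at day 15. Below these 10, Egr1, Zfp36, Atp6v0c and Atg9a also had 2 members and other boundary peaks at day 15.

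The members lay less closely at listed gene starts than shared regions. Where the strand is listed, 112 of 1558 members (7.19%, 6.01% to 8.58%) were at the far end of the gene and not at a start, against 112 of 2735 (3.41% to 4.90%) regions shared with day 15 alone and 0.796% of regions in all lists. Among regions of 10 to 15 naive tags the first 2 shares were 7.25% (5.78% to 9.07%) and 5.13% (3.92% to 6.70%), with intervals that overlap. The distance of the naive summit from the nearest listed start had a median of 184.5 bp in members, 92 bp in regions shared with day 15 alone and 100 bp in regions in all lists. Summits within 300 bp made up 55.5% (53.3% to 57.7%), 69.6% (68.0% to 71.2%) and 77.2% (75.5% to 78.9%). The difference remained at 10 to 15 tags, with 55.2% (52.4% to 58.0%), 68.5% (65.7% to 71.1%) and 76.9% (69.7% to 82.8%). Unlike the far-end share, these distances include regions at genes of unlisted strand, which can count as far from a start. Such regions were 440 of 1998 members, 591 of 3326 shared with day 15 alone and 363 of 2372 in all lists. What they add to the difference was not tested.

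Part of the members far from a start lay beside a tumour peak. In the 280 members with a tumour peak within 1000 bp the median summit distance was 468 bp and 35.2% of summits were within 300 bp of a start. In the other 1718 the median was 140.5 bp and the share was 58.7% (56.4% to 61.1%), still below that of either shared class. The far-end share went the other way, with 8 of 222 (3.60%, 1.84% to 6.95%) beside a tumour peak and 104 of 1336 (7.78%, 6.47% to 9.35%) elsewhere. Upf2, of nonsense-mediated decay, shows the first kind, with its naive summit (20 tags) 365 bp before the start and other boundary peaks in both tumour lists. Atg13, of autophagy, had 15 tags 72 bp after its start, 88 bp from a day 15 peak.

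**Figure D3:**
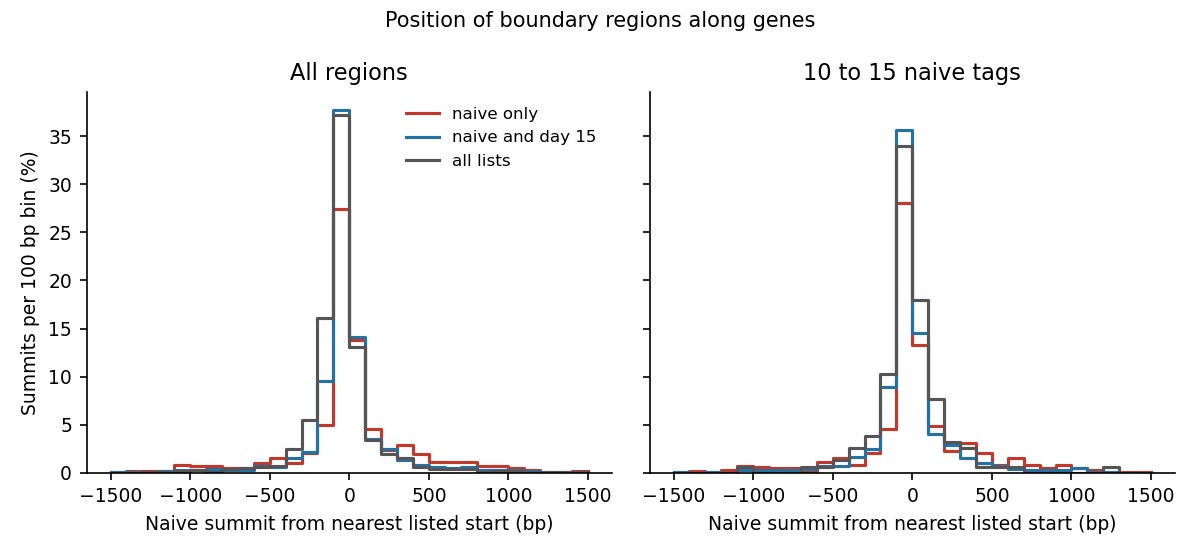
Position of naive summits along genes: the horizontal axis is the distance from the nearest listed start (bp, negative is upstream) and the vertical axis the share of summits in each 100 bp bin (%), for the 3 classes of boundary regions, over all regions (left) and over those of 10 to 15 naive tags (right). Summits farther than 1500 bp are not drawn but are in the totals; the naive-only peak at the start is lower in both panels.

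The promoters under members were rich in CpG, like those of shared regions. Over the 1148 listed promoters of 300 bases (250 before and 50 after the start) with at least 100 bp under a member, the median G and C content was 62.0% and the median CpG observed over expected was 0.80. It was 0.82 for promoters under regions shared with day 15 alone, 0.86 for those in all lists and 0.38 for all 32817 promoters. Promoters poor in CpG, with a ratio under 0.4 as is usual outside islands, were 8.54% (7.06% to 10.3%) of those under members, 6.95% and 2.00% of the shared classes and 51.4% of all. At 10 to 15 naive tags they were 7.51%, 7.73% and 2.22%, and the median ratios were 0.81, 0.82 and 0.88. Among genes of macrophages, the stretches of Ear2, Ear6, Spp1 and Fcgr1 printed above are poor in CpG, but they were chosen after their values were seen. Stretches at other immune and tissue genes varied. Those of Il6ra, Socs1 and Timp2 held 17, 11 and 13 CpGs. Their G and C content was 64.8%, 61.2% and 74.5%. The phosphatase gene Ptpn6 went the other way, with 4 CpGs in a stretch of 156 bases and 66.0% G and C.

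The 15 motifs were searched on both strands, and matches may overlap: PU.1 GAGGAAGT, AP-1 TGANTCA, CRE TGACGTCA, C/EBP TTGCNNAA, the SP box GGGCGG, the NF-Y box CCAAT, the E-box CACGTG, ETS CCGGAAGT, the TATA box TATAAA and CTCF CCACNAGG, and by name alone the longer motifs of interferon response, NRF1, YY1, ZBTB33-type and PPAR-type sites. A match is a run of letters and no evidence of binding. The CCAAT box was in 36.3% (33.6% to 39.1%) of promoters under members, 43.5% (41.7% to 45.3%) under regions shared with day 15 alone, 50.5% (48.5% to 52.4%) under regions in all lists and 37.4% of all promoters. This order went with peak strength: at 10 to 15 naive tags the shares were 36.0%, 36.4% and 31.1%, with overlapping intervals. The GC box of SP factors was in 68.6%, 71.3% and 76.7% of the 3 classes and in 35.6% of all promoters.

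For the other motifs the members and the regions shared with day 15 alone had overlapping intervals. ETS was in 11.6% and 11.9% against 3.89% of all promoters, the E-box in 13.4% and 10.9% against 7.15%, and CRE in 4.01% and 4.32% against 1.79%. The motifs of factors that mark macrophages or their activation were rare: PU.1 in 2.70% and 3.25% against 3.20% of all promoters, AP-1 in 4.44% and 3.59% against 7.81%, C/EBP in 6.71% and 7.26% against 10.8%, and the interferon-type motif in 3.14% and 2.56% against 3.43%. TATA was in 6.18% and 4.94% against 13.6%. The PPAR-type motif was in 0 of 1148, and in 13 of all 32817 promoters.

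**Figure D4:**
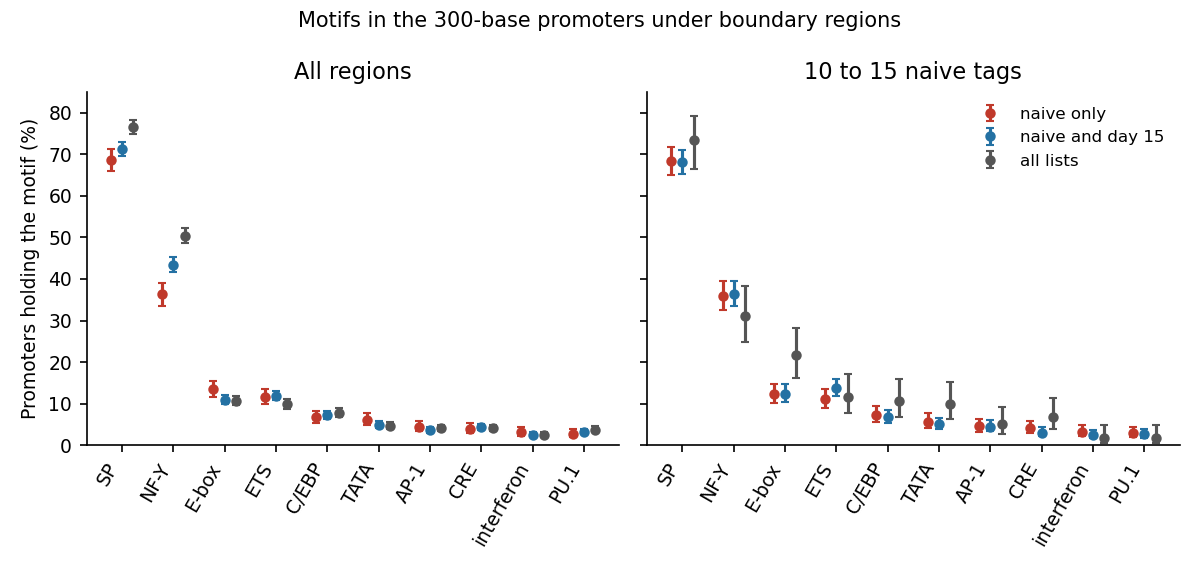
Share of promoters holding each of 10 motifs (vertical axis, %; bars are 95% Wilson intervals over promoters) under the 3 classes of boundary regions, over all regions (left) and over those of 10 to 15 naive tags (right). CCAAT rises from 36.3% to 50.5% across the classes on the left, while on the right naive-only and day 15 promoters are at 36.0% and 36.4%.

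Genes were then grouped by 20 lists of functions, and for each the number at a member is given out of the number with a naive boundary region, to be read beside the 24.2% of all protein-coding genes. Tags of shared genes are given as they stand in each list, unscaled, although the day 15 list was 2.38 times as deep as the naive one. Scaled to the naive depth, the day 15 tags were below the naive tags in 47 of the 47 shared genes that the naming rule chose and that had a day 15 peak. Over all lists, 113 of 538 different genes were at a member and 82 of them had no tumour boundary peak. The lists were chosen with earlier results of these data known, so the order of their shares is a description. The shares ran from 9 of 17 in the alveolar macrophage identity list (52.9%) to 0 of 9 in the MHC class II list. These lists differed in strength, with medians of 14 and 19 tags over their genes' best naive regions.

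**Figure D5:**
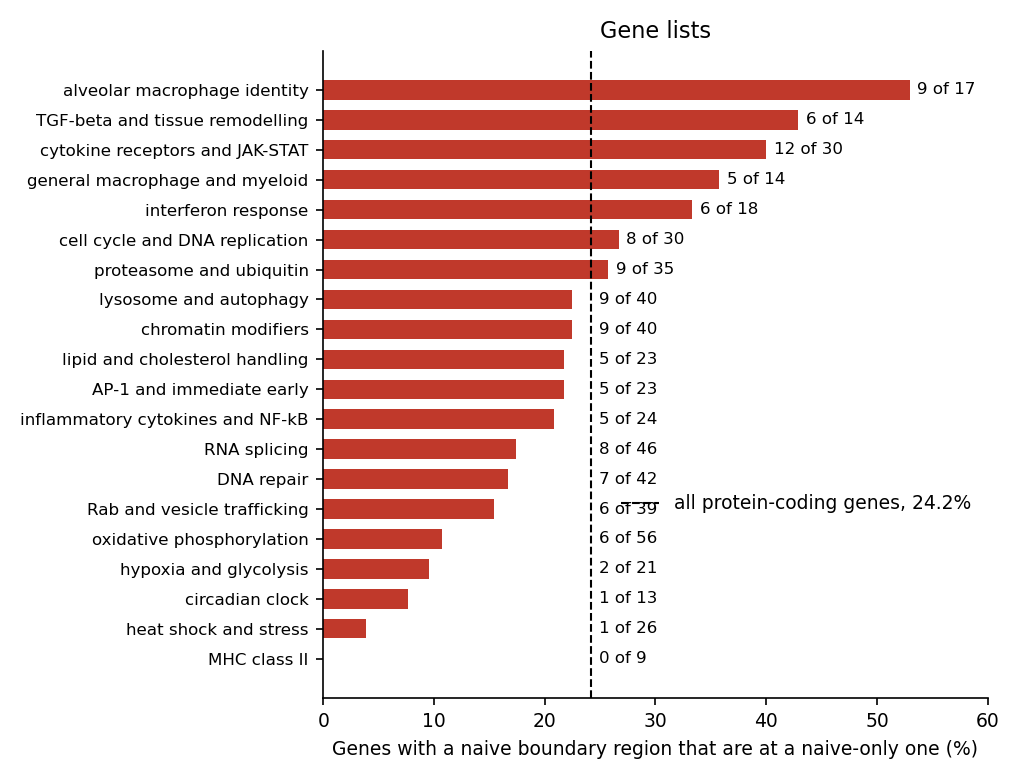
Share of the genes with a naive boundary region that were at a naive-only one (horizontal axis, %) in each of the 20 gene lists, with the counts beside the bars; the dashed line is the 24.2% of all protein-coding genes. Alveolar macrophage identity is highest with 9 of 17, and MHC class II lowest with 0 of 9.

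Of the alveolar macrophage identity list, 7 of the 9 genes at a member had no tumour boundary peak. Pparg encodes PPAR-gamma, the nuclear receptor that alveolar macrophages need in order to develop. Its member (chr6:115360972-115361375) had 9 tags and a fold of 4.95, with the summit 165 bp after a start and the nearest day 15 peak 150 kb away. Fabp5, a fatty acid-binding protein, had 13 tags and a fold of 5.98 (chr3:10012222-10012725). Itgax, which encodes CD11c, had 8 tags, 168 bp before the start (chr7:128129298-128129543). Cidec, a protein of lipid droplets, had 15 (chr6:113435877-113436086). Spp1 had 15 tags (chr5:104434917-104435186), with a day 15 peak 1764 bp away. These are among the weaker peaks of the naive list, whose median over all boundary genes was 19 tags, while this list's median was 14.

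Ear2 had a member of 11 tags at its start (chr14:44102514-44102726) and one of 10 tags 719 bp from its other end, and Ear6 had 10 tags and a different boundary peak at day 15, 1502 bp away. The transcription factor genes Klf4 and Bhlhe40 had more tags. Klf4 had 23 tags 505 bp before its start and no day 15 peak within 17 kb (chr4:55532375-55533119). Bhlhe40 encodes a repressor that supports the proliferation of resident macrophages, and it had 32 tags (chr6:108659865-108660606), but a day 15 peak was 71 bp and a day 30 peak 65 bp away, and the gene had other boundary peaks in both tumour lists. The identity genes with a naive boundary region that was no member included Cebpb with 29 naive and 32 day 15 tags, the GM-CSF receptor genes Csf2ra (24 and 23) and Csf2rb (13 and 20), Tgfbr2 (16 and 18), Lpl (14 and 26) and Atp6v0d2 (27 and 18). Among all protein-coding genes whose best naive boundary region had 10 to 15 tags, 1036 of 2306 (44.9%, 42.9% to 47.0%) were at a member, and the list's 9 of 17, with a median of 14 tags, stands beside that share as well as beside 24.2%.

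Of 13 defining markers of alveolar macrophages, 6 had a naive boundary region, and Pparg, Fabp5, Ear2, Itgax and Cidec of these were at members. These 6 had 70 tags in all at their best naive regions, a strength at which the naive-only share was high in general (44.9% of protein-coding genes at 10 to 15 tags). Pparg and Itgax, with 9 and 8 tags, lay below that band. Of boundary regions at 6 to 9 tags 70.8% were naive-only. At day 15 1 of the 13 had a boundary peak, Lpl, and at day 30 0 had one. Markers of other cell types were at no member: of 16 alveolar epithelial markers 2 had a naive boundary region (Abca3 and Etv5), of 16 T and NK cell markers 1 (Cd3d), of 10 neutrophil markers 1 (S100a8), and of 16 markers of monocyte-derived and interstitial macrophages 4, among them Maf and Klf2. For 10 B cell and 14 endothelial and fibroblast markers the number was 0. At day 15 the numbers of markers with a boundary peak in these other lists equalled the naive ones, at 2, 1, 1, 4, 0 and 0 in the same order of cell types. At day 30 they were 2, 0, 1, 1, 0 and 0. The lists were not matched for strength. Median best naive tags were 29.5 for the epithelial and 19.5 for the monocyte-derived and interstitial markers, while Cd3d had 12 and S100a8 13. Of boundary regions at 16 to 20 naive tags 19.9% were naive-only, and at 21 to 30 tags 4.22%. In pooled cells, fewer cells with an open region and a less open region in each cell cannot be told apart.

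Of the general macrophage list 5 of 14 were at members. Fcgr1 had 10 tags, 8 bp before its start (chr3:96293792-96294134), and Tyrobp, the signalling adaptor DAP12, had 13 (chr7:30413692-30414059), both without a tumour boundary peak. The cathepsin gene Ctsb had 12, also without one. Mertk and Axl, receptors for the uptake of dying cells, had 10 and 8 and kept other boundary peaks at day 15. Spi1, which encodes PU.1, was not at a member, with 14 naive and 19 day 15 tags, nor was Cd68, with 21 naive, 25 day 15 and 13 day 30 tags.

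Of the MHC class II list 0 of 9 were at a member, all 9 boundary genes being shared with day 15. The list's median was 19 tags. It includes the regulator genes Rfxap, Rfxank, Creb1, Nfya and Nfyb, with 31, 19, 28, 34 and 37 naive tags. At 21 to 30 naive tags 4.22% of boundary regions were naive-only, and at 31 or more 0.331%. H2-Ab1, a chain of the class II molecule, had 9 naive and 15 day 15 tags (6.29 at the naive depth). This weak naive peak was found again, while 70.8% of boundary regions of 6 to 9 naive tags were naive-only. H2-DMa had 18, 32 and 23 tags in the naive, day 15 and day 30 lists. H2-DMb1 and H2-DMb2, which are similar copies and so uncertain, had 12 naive tags each, and 14 and 11 at day 15 (5.87 and 4.61 at the naive depth).

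Of the interferon list 6 of 18 were at members, and none of the 6 had a tumour boundary peak. For each interferon receptor 1 chain was among them: Ifnar2 had 10 tags at its start and 14 near its other end, beside Il10rb, and Ifngr2 had 3 members, while Ifnar1 and Ifngr1 were not at members. A day 15 peak lay 354 bp from the Ifnar2 member near the other end. Irf3, the factor that starts interferon transcription, had 15 tags 28 bp after its start, in a region shared with Bcl2l12 (chr7:44997556-44997778). Mx2, of the family of antiviral GTPases but a transcribed pseudogene in this annotation and so outside the protein-coding background, had 22 tags and a fold of 9.66 at an end of unlisted strand (chr16:97534947-97535460). Isg20 had 14 tags and Gbp3 had 11. Irf1, with 16 naive and 26 day 15 tags (10.9 at the naive depth), and Irf2, with 17 and 18 (7.55), were shared.

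The list of cytokine receptors and JAK-STAT signalling had 12 of 30 at members, 7 of them without a tumour boundary peak. Socs1, a feedback inhibitor of JAK kinases, had members of 20 and 16 tags at its start (chr16:10785401-10785745 and chr16:10785041-10785313). The phosphatase genes Ptpn6, encoding SHP-1, and Ptpn11, encoding SHP-2, had 13 and 14 tags, and the interleukin receptor genes Il6ra and Il21r had 16 and 14. Cish, Acvr1, Bmpr2, Il10rb and Il17ra were at members of 9 to 14 tags and had other boundary peaks at day 15.

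Of the list of TGF-beta and tissue remodelling 6 of 14 were at members. Tgif1, a repressor of SMAD targets, had 28 tags 859 bp after its start with a day 15 peak 461 bp away, and Smad7, an inhibitor of the receptor, had 16 tags with one 154 bp away. Tgm2, a crosslinking enzyme, had 22 tags (chr2:158146184-158146517), Timp2, an inhibitor of metalloproteinases, 12 (chr11:118355188-118355548) and the fibronectin gene Fn1 9 tags. Tgfbr1 was in all lists, with 38, 24 and 18 tags.

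The inflammatory and NF-kB list had 5 of 24 at members: Rela, the p65 subunit, with 16 tags 22 bp before its start and no day 15 peak within 50 kb (chr19:5637233-5637584), the chemokine gene Ccl6 with 17, the adhesion molecule gene Icam1 with 14, Il12b with 9 and Nfkb1 with 12. Nfkb1 had a day 15 peak 186 bp away. The AP-1 and immediate early list had 5 of 23. The nuclear receptor gene Nr4a2 had 21 tags and no day 15 peak within 57 kb (chr2:57123981-57124391), and Mafk had 14. Egr1 had 31 and 21 tags and Zfp36 30 and 21, high pileups over a high local background with folds between 2.74 and 4.73, and both genes kept other boundary peaks at day 15. Fos was in all lists, with 36, 31 and 18 tags.

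Of the lipid list 5 of 23 were at members. Abca1, which exports cholesterol, had 16 tags 154 bp before its start and a day 15 peak 819 bp away (chr4:53159782-53160240). The LXR genes Nr1h2 and Nr1h3, whose products switch Abca1 on, had 10 tags at the start and 15 tags near the far end. Nr1h2 kept another boundary peak at day 15. The Nr1h3 member lay outside the gene, 608 bp from its end, and is also near Madd. Pnpla2, a triglyceride lipase, had 23 (chr7:141455004-141455273) and Dgat2, which makes triglycerides, had 14. Npc1 and Npc2, of lysosomal cholesterol export, were shared, with 25 and 43 naive tags.

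The lists of functions common to all cells lay near or under the background. Lysosome and autophagy had 9 of 40 (Ctsa, Ctsb, Mcoln1, Atp6v0c, Atp6v1a, Ulk2, Atg9a, Atg13 and Map1lc3b), 5 of which had other tumour boundary peaks. Proteasome and ubiquitin had 9 of 35, with Psmd6 at 20 tags, and chromatin modifiers 9 of 40, with the acetyltransferase gene Kat8 at 8 tags. RNA splicing had 8 of 46, DNA repair 7 of 42, Rab and vesicle traffic 6 of 39, and oxidative phosphorylation 6 of 56, where Ndufb4 of complex I had 19 tags and a fold of 9.09. Cell cycle and DNA replication had 8 of 30: the cyclin gene Ccnb1 had 18 tags and a fold of 10.3 (chr13:100786411-100786814) and the checkpoint kinase gene Bub1 14. Hypoxia and glycolysis had 2 of 21, the circadian clock 1 of 13 (Bhlhe40), and heat shock and stress 1 of 26 (Hspa1a, 13 tags, uncertain since Hspa1b is a near-identical copy). The median best naive region had 20, 26 and 24.5 tags in these last lists and 19 over all boundary genes, but strength and share did not go together in every list: the TGF-beta list, with 6 of 14, had a median of 22.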

How the data were processed

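The data were 3 ATAC-seq peak lists, 1 a group, with 4, 4 and 3 samples behind them. The design text speaks of triplicates. The submitters' processing notes name Bowtie2 2.3.4.1, MACS2 2.1.1 and mm10. Their settings, read filters, pooling of samples and any transposase shift are not given in the sources used here. Besides positions, the deposited columns are the authors' score, a fold over local background (a ratio) and −log10 p- and q-values. Their meaning was taken from the values.

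Pileup and background were recovered from the deposited fold (pileup plus 1 over background plus 1) and p-value (upper Poisson tail), within 0.001 on the −log10 scale. In 49 naive peaks more than 1 pileup was possible, and that with a background on a step of 0.02 was taken. The most frequent recovered background, taken as the floor of each list, gave the depth, with an assumed tag length of 200 bp. It was 39.2, 93.5 and 82.2 tags per 10 kb. Peaks were also simulated with the same formulas, from the recovered pileups and shuffled backgrounds. Of these pileups 99.99%, 99.98% and 99.88% came back for the naive, day 15 and day 30 lists. The simulation checks the inversion alone, and cannot show whether the deposited columns follow those formulas. Python 3.11.15 and pandas 2.3.3 were used.

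Members and gene lists were chosen with earlier results of these data known. Named were the 20 strongest and 5 weakest members, 3 on each side of the 1000 bp limit, the 3 nearest to a tumour peak, up to 10 genes with several members, and per list up to 5 genes at members and 2 others, with alveolar macrophage and MHC class II genes at members in full. Genes named past this rule were chosen after their values were seen. A few named by it are not reported here. All 918 list entries matched a RefSeq symbol.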

Additional observations from a re-analysis of the deposited data

How the results depend on the processing

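No paired analysis was possible because each group had 1 peak list, and for the same reason leaving out a replicate was not possible. The 25.8% of naive boundary regions that were naive-only was 23.8% and 23.0% when peaks up to 200 and 500 bp apart were joined, 27.1% when sharing needed an overlap of 50%, 19.7% over naive peaks with a −log10 q of at least 5, 24.1% and 27.2% with boundaries of 500 and 2000 bp, 24.3% with protein-coding genes only, and 15.6% when each list was reduced to its strongest 3352 peaks. The count of 1998 became 1330 with the stricter q and 388 with the strongest peaks, and the median pileup 14 and 25 tags. The share of genes left without a tumour boundary peak was 87.9% and 91.3% when nearby peaks were joined, 74.9% with the 50% overlap, 86.9% and 73.9% with the 500 and 2000 bp boundaries and 96.3% with the strongest peaks. The share of members at a start, 92.8%, became 95.8% and 90.4% with those boundaries, 95.6% with protein-coding genes only and 95.7% with the strongest peaks. The cause of these shifts was not tested beyond the settings themselves. Without chromosomes X and Y, a setting chosen after seeing the data, 1919 regions and 25.4% remained. The comparisons at 10 to 15 tags were also chosen after seeing the data. A naive depth of 39.2 tags per 10 kb limits what can be said of members of 6 to 9 tags, which were 345 of the 1998.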

Other observations

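Zinc finger protein genes, named Zfp and a number, were often at naive-only boundary regions. This family was chosen after its values were seen. Of 195 such genes with a naive boundary region, 70 (35.9%, 29.5% to 42.8%) were at a member, against 24.2% of all protein-coding genes, and 62 had no tumour boundary peak. Where the gene's best naive region had 10 to 15 tags, 48 of 72 (66.7%, 55.2% to 76.5%) were at a member, against 1036 of 2306 protein-coding genes (44.9%, 42.9% to 47.0%). Zfp84 had 22 tags at its start, Zfp119a 23 tags 420 bp after its start, Zfp710 19 tags, and Zfp964 and Zfp960 16 tags each. Many of these genes are similar copies in clusters, so reads may have been assigned to the wrong copy and the single values are uncertain. Of the other 4 families counted, solute carriers (Slc) were at members in 32.3% (24.8% to 40.8%), mitochondrial ribosomal proteins (Mrpl and Mrps) in 26.9% (16.8% to 40.3%), Tmem genes in 23.8% (16.7% to 32.8%) and ribosomal proteins (Rpl and Rps) in 15.4% (8.58% to 26.1%). These were not matched for strength, and each interval but that of Slc covers 24.2%.

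Of 1391 long non-coding RNA genes with a naive boundary region 433 (31.1%, 28.8% to 33.6%) were at a member, beside the 24.2% of protein-coding genes. For microRNA genes it was 21 of 73 (28.8%, 19.7% to 40.0%), for tRNA genes 20.4% (14.0% to 28.7%) and for snoRNA genes 20.4% (11.8% to 32.9%), intervals that cover 24.2%. None of these was matched for strength. Among the microRNA genes, Mirlet7i had 12 tags at 162 bp, Mir193a 12 tags at 630 bp and Mir574 10 tags at 38 bp from the gene. They were chosen after their values were seen.

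The X chromosome held 78 members (3.90%, 3.14% to 4.85%), against 2.98% (2.45% to 3.61%) of regions shared with day 15 alone, an overlapping interval, and 0.970% of regions in all lists. At 10 to 15 naive tags the shares were 3.61%, 2.55% and 1.25%, and over all naive-only regions away from gene ends it was 2.58%. The only naive peak on the Y chromosome was a member of 10 tags at Ddx3y (chrY:1286461-1286692), and both tumour lists had 0 peaks there. The labels give no sex.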
